A study of Homo sapiens with 4 samples.

Results

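Ribosomal protein genes encode the proteins of the large (RPL genes, with the stalk proteins RPLP) and small (RPS genes) ribosomal subunits. The peaks described here are the consensus ATAC-seq peaks within 1 kb of an annotated transcription start of a protein-coding gene whose symbol is RPL, RPLP or RPS followed by a number, with an optional A, X or L. The rule used gene names and positions only, and no measured value. It found 99 of 139872 consensus peaks (0.0708%), at 70 of 80 such genes: 44 of 49 large subunit genes and 26 of 31 small subunit genes. For each gene the member peak nearest to its canonical start is called the start peak (70 peaks), and the remaining 29 are called second peaks. One peak was found at 47 genes, 2 at 17 genes and 3 at 6 genes. Of the 10 genes without a member peak, RPL10L had its nearest peak 1.79 kb away and RPL3L 4.67 kb away, both of them diverged copies of other ribosomal protein genes. The other 8 are not analysed here, so these counts are not shares of genes with an open promoter.

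ATAC-seq measures open chromatin by inserting sequencing adaptors into accessible DNA with a transposase. SEM is a human B cell precursor leukemia line with a rearrangement of MLL. All 4 libraries came from SEM cells expressing dCas9-KRAB, a cleavage-dead Cas9 joined to a repressor domain, and either the guide RNA sgFLT3-DE-1, aimed at a HOXA9-bound enhancer of FLT3 (2 libraries), or sgNT, a guide RNA without a target (2 libraries). The series asked how specific the silencing was across the genome, and the ribosomal protein promoters stand here as a set of genes used by every cell. The labels do not say whether the replicates were separate cultures or whether the cells were 1 clone, so every p-value below rests on a spread that may be technical only.

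Each subunit is built from ribosomal RNA and a fixed set of proteins made in matched amounts, and the genes of these proteins are scattered over the chromosomes and transcribed at high rates in growing cells. Most vertebrate ribosomal protein mRNAs begin with a C followed by a run of pyrimidines, the terminal oligopyrimidine (TOP) tract, through which the growth regulator mTOR controls their translation. Binding sites of ETS family factors, SP factors and YY1 are known from their promoters in mammals.

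Sequence around the starts was read from GRCh37 (hg19), the build of the files, with starts from GENCODE 44 lifted to that build. The windows below are shown because the pyrimidine run at the start is the sequence feature that most of these genes share and most other genes lack. Each runs from 15 bases before the start to 15 bases from the start on, 5′ to 3′ on the coding strand, and capitals mark a run of at least 5 pyrimidines that covers the start base. Stalk proteins come first, then the 5S particle, other large subunit proteins and small subunit proteins.
RPLP0 (chr12:120638900-120638929, minus): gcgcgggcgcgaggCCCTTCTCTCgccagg
RPLP1 (chr15:69745142-69745171, plus): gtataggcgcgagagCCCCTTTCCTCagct
RPLP2 (chr11:809952-809981, plus): ttgcgtcggcgCCTTCCTTTTCCTCCCTgt
RPL5 (chr1:93297582-93297611, plus): cgcaagggctgtggCCCTTTTCCCaccccc
RPL11 (chr1:24018281-24018310, plus): cggaagctccgCTTTCTCTTCCTgctctcc
RPL28 (chr19:55897285-55897314, plus): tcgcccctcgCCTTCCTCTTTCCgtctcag
RPL37 (chr5:40835310-40835339, minus): tagcggaagtgCCTTCTCTTCCggtctttc
RPL39 (chrX:118925579-118925608, minus): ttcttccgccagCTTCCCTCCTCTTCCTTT
RPS3A (chr4:152020765-152020794, plus): cgactcccacttccgCCCTTTTggctctct
RPS6 (chr9:19380220-19380249, minus): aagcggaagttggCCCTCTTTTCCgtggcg
RPS14 (chr5:149829288-149829317, minus): ccgccccctcccaCTCTCTCTTTCCggtgt
RPS27A (chr2:55459809-55459838, plus): tgcgcggcgTTCTTCCTTTTCgatccgcca

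A C at the start followed by 4 pyrimidines was found at 50 of the 70 genes with a start peak (71.4%, 95% Wilson interval 59.9 to 80.7%), against 571 of 11771 other coding genes with a start peak (4.85%). It was present at 31 of 44 large subunit genes and 19 of 26 small subunit genes. A C as the first base alone was found at 54 genes (77.1%), against 10.4% of the other coding genes. The median length of the pyrimidine run over the start was 11 bases at ribosomal protein genes and 0 bases at other coding genes. The 20 exceptions include the diverged copies RPL39L, a copy of RPL39 with high expression in testis, and RPS27L, a p53 target related to RPS27. RPL3, RPL4, RPL10A and RPL15 were also among them, as shown by the windows of these genes.
RPL3 (chr22:39715614-39715643, minus): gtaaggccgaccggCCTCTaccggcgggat
RPL4 (chr15:66797179-66797208, minus): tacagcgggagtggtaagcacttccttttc
RPL10A (chr6:35436163-35436192, plus): tgcgcaagacatgctagtctcttttccggt
RPL15 (chr3:23958608-23958637, plus): cccaaaaggcattgtgggagtacagctctt
RPL39L (chr3:186857270-186857299, minus): gcatccggggaaatcgcggtcttagcatcc
RPS27L (chr15:63449662-63449691, minus): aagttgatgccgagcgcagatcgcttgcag
At RPL3 the run over the start is 5 bases long and the base after it is a purine. At RPL4 and RPL10A a pyrimidine run lies a few bases downstream of the annotated start, where this definition does not count it. The result therefore depends on the exact base that the annotation gives as the start.

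Motifs were searched from 250 bases before to 50 bases after the start, on the coding strand and, for motifs set so, also on the opposite strand. A match is a description of the letters, not of a bound factor. The ETS core CCGGAAG was present at 25 of 70 ribosomal protein genes (35.7%, Wilson interval 25.5 to 47.4%) and at 19.7% of 11771 other coding genes. The YY1 core AAGATGGC was present at 10 genes (14.3%, interval 7.95 to 24.3%) and at 5.67% of other coding genes, and the M8 box, a palindromic motif of ribosomal protein promoters among others, at 4 genes (5.71%) and at 0.918%. The SP/KLF core GGGGCGGGG was less frequent at ribosomal protein genes (9 genes, 12.9%, interval 6.91 to 22.7%) than at other coding genes (30.2%), whose start peaks were also richer in GC (median 67.8%, against 61.1% for ribosomal protein genes). The CCAAT core of NFY was found at 24 genes (34.3%) and at 36.5% of other coding genes, with 20 of 44 large subunit genes and 4 of 26 small subunit genes. The E-box CACGTG, the letters that MYC and USF factors bind, had 5 genes (7.14%, against 10.2%), TATAAA had 3 genes (4.29%, against 3.87%) and the palindromic NRF1 core had 2 genes (2.86%, against 2.51%). The HOXA9 core TTTATNNC was found at 6 genes (8.57%, interval 3.99 to 17.5%) and at 6.01% of other coding genes. The RPL3 window printed below holds TATAAA on the opposite strand, which is not marked. A pair of upstream windows is printed, each with the 120 bases that end just before the start and with ETS, SP/KLF and M8 matches in capitals: overlapping ETS and SP/KLF cores at RPL3, the start peak with the smallest p, and an ETS core and an M8 box at RPS6.
RPL3 (chr22:39715629-39715748, minus): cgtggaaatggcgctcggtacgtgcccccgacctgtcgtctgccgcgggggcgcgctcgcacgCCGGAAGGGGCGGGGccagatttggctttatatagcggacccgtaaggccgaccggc
RPS6 (chr9:19380235-19380354, minus): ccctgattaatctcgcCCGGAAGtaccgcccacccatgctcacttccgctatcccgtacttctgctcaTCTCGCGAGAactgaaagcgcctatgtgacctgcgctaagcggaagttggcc

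**Figure D1:**
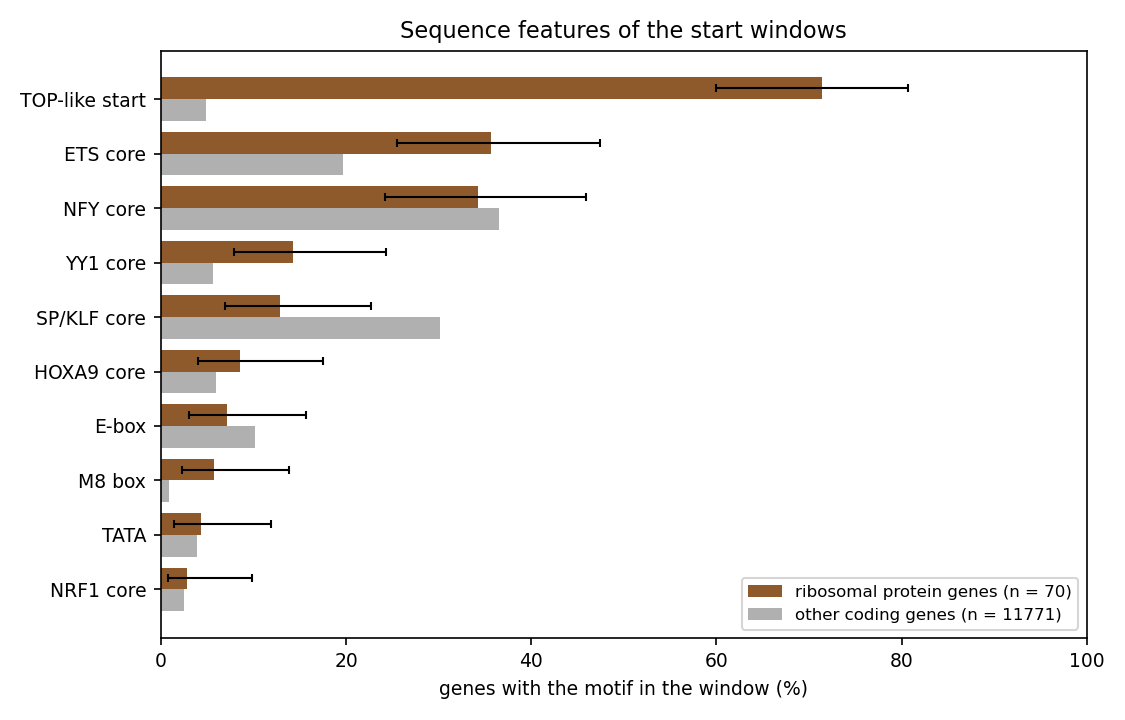
Share of genes with each sequence feature (horizontal axis, percent), for the 70 ribosomal protein genes with a start peak (brown bars, with 95% Wilson intervals) and 11771 other coding genes with a start peak (grey bars). The TOP-like start separates the classes most (71.4% and 4.85%), ETS and YY1 cores are more frequent and SP/KLF cores less frequent at ribosomal protein genes, and the NFY core is about equal (34.3% and 36.5%).

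The start peaks sat close to the starts. The midpoint of the peak lay upstream of the start at 60 of 70 genes (85.7%), against 73.7% of 11775 other coding genes, with a median distance of 81.75 bp upstream, against 58.5 bp. The peak covered the start base itself at 69 of 70 genes (98.6%), against 87.5% of other coding genes. The exception was RPL7, whose nearest peak began 211 bp from its start, next to a second peak of 1048 bp at the divergent gene RDH10. Another coding gene, other than a read-through transcript of the same gene, had a start within 1 kb of 13 of the 70 start peaks, so counts there cannot be assigned to 1 gene. Some second peaks belong mainly to a neighbour: those 9137 and 9496 bp from the canonical start of RPL36 lie at HSD11B1L and MICOS13, the one 9164 bp from RPL6 at PTPN11 and the one 12151 bp from RPS29 at LRR1, each reached through an alternative transcript start.

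The libraries held 3670758 and 4831164 counts in sgFLT3-DE-1 cells and 3321429 and 2683477 in sgNT cells. The peak at the guide site had 66.1 and 74.7 normalised CPM (counts over the TMM-scaled library total) in sgFLT3-DE-1 cells and 126 and 140 in sgNT cells, so the libraries follow their labels there (log2 fold change -0.92, SE 0.264, edgeR adjusted p = 1.0). Of B lineage marker genes, 7 of 9 had a promoter peak, with a median of 7.76 CPM. A promoter peak was found at 2 of 5 T lineage genes (1.76 CPM), 3 of 5 myeloid genes (1.44 CPM), 1 of 5 erythroid genes (17.6 CPM, at HBB alone, above the B lineage median) and 4 of 4 fibroblast and epithelial genes (4.36 CPM).

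Accessibility at the ribosomal protein starts spanned a wide range. Over the 4 libraries the start peaks averaged 1.67 to 71.4 normalised CPM, with a median of 13.6 CPM, and the order of genes was much the same in every library (Spearman correlations between libraries of 0.905 to 0.940 over the 70 peaks, which share peak length and sequence between libraries). Longer peaks held more counts (Spearman 0.73 between length and CPM across 70 genes), so genes were compared per kb of peak. RPL15, a core protein of the large subunit, had the highest level per length (114 CPM per kb), followed by RPS29 (108), RPL37 (105), RPL34 (98.0), RPL7 (97.8), RPS13 (97.6), RPS3A (94.1), RPL5 (79.6), RPS4X (76.0) and RPL30 (73.1). The RPL15 peak is shared with NKIRAS1. The RPL7 peak is shared with RDH10 and does not cover the RPL7 start, so neither level can be assigned to 1 gene. The lowest were RPL4 (11.0 CPM per kb, in a peak shared with ZWILCH), RPL19 (18.2), RPL23 (18.4), RPS10 (20.8) and RPL32 (21.2). The median was 48.2 CPM per kb over small subunit genes and 38.1 CPM per kb over large subunit genes. Without division by length the order was reversed, with 13.2 CPM over small and 13.6 CPM over large subunit genes.

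Among the 5 start peaks with the most counts, the estimates ran from -0.29 to 0.02. RPL15, in the peak shared with NKIRAS1, had 81.2 and 60.8 CPM in sgFLT3-DE-1 cells and 78.2 and 65.3 CPM in sgNT cells. RPL37, which encodes a zinc-binding protein of the large subunit, had 74.1 and 42.5 CPM in sgFLT3-DE-1 cells and 62.2 and 52.0 CPM in sgNT cells. The estimates were -0.02 (SE 0.262) for RPL15 and 0.02 (SE 0.276) for RPL37. RPS3A had 55.6 and 39.4 CPM in sgFLT3-DE-1 cells and 58.1 and 51.3 CPM in sgNT cells (-0.21, SE 0.260). In each of these the replicate 1 libraries were higher than the replicate 2 library of the same guide, and the ranges of both guides overlapped. RPS4X, the X-linked gene of the small subunit protein S4, had 44.2 and 33.4 CPM in sgFLT3-DE-1 cells and 51.5 and 42.8 CPM in sgNT cells, with overlap (-0.29, SE 0.258). RPL39L had 40.2 and 46.0 CPM in sgFLT3-DE-1 cells and 48.1 and 47.2 CPM in sgNT cells, without overlap but with a difference of -0.14 on the log2 scale (SE 0.251).

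Set against start peaks of other coding genes in the same classes of GC content (5 percentage points wide, other genes weighted by the number of ribosomal protein genes in each class), the tested ribosomal protein start peaks had lower levels in every library. Their median was 11.4 and 14.4 CPM in sgFLT3-DE-1 cells and 14.4 and 16.8 CPM in sgNT cells. The weighted median of the other coding genes was 17.3 and 19.7 CPM in sgFLT3-DE-1 cells and 20.1 and 21.2 CPM in sgNT cells. The ratio was 0.661 and 0.730 in sgFLT3-DE-1 cells (mean 0.696 ± 0.0492, SD, n = 2) and 0.717 and 0.792 in sgNT cells (mean 0.755 ± 0.0536, SD, n = 2), and these ranges overlap. Over all libraries the ratio was 0.725, and 0.796 per kb of peak. Over all start peaks, the difference in level was found in the GC-rich classes. Between 55 and 60% GC the median was 16.5 CPM at 19 ribosomal protein genes and 16.3 CPM at other coding genes, while between 60 and 65% it was 13.0 CPM at 23 genes and 20.5 CPM, and between 65 and 70% 11.6 CPM at 15 genes and 20.8 CPM. Peak length moved with it: ribosomal protein peaks were 372, 348 and 300 bp long in these classes and other coding peaks 324.5, 384 and 406.5 bp. Its part in the difference was not tested.

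**Figure D2:**
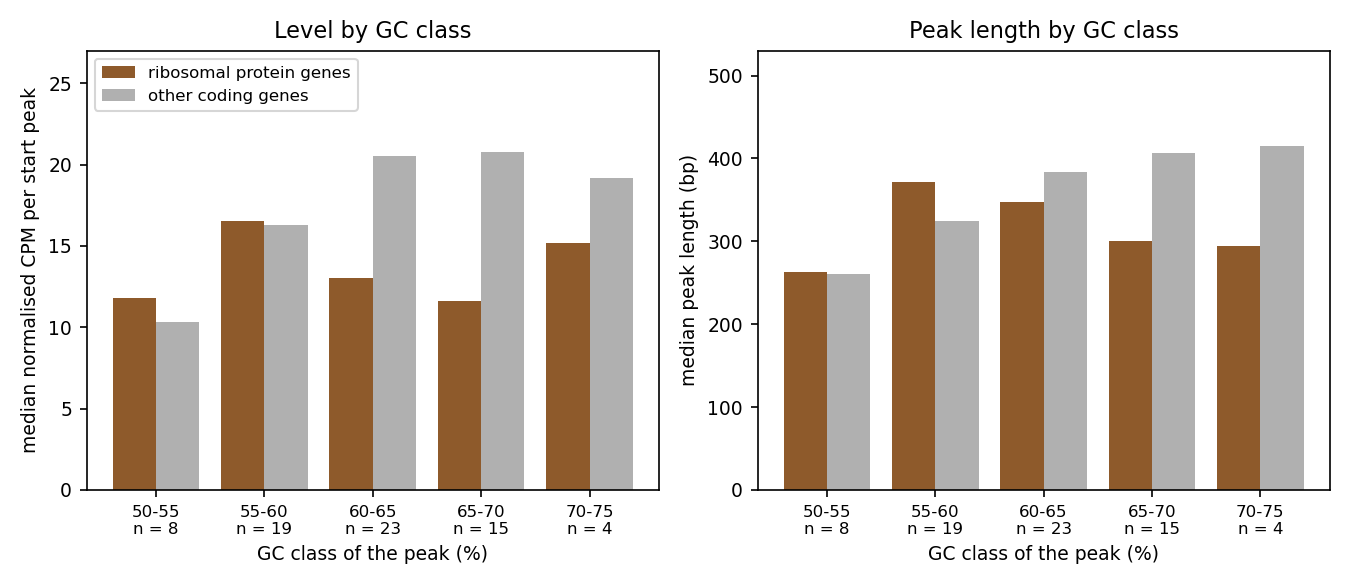
Median normalised CPM per start peak (left) and median peak length in bp (right) by GC class of the peak (horizontal axis, percent), for ribosomal protein genes (brown, number of genes under each class) and other coding genes (grey). The class with 1 ribosomal protein gene is not drawn. Other coding genes gain level with GC up to 65 to 70% (20.8 CPM), where ribosomal protein genes have 11.6 CPM.

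The comparison of guides asked whether any of these promoters changed when the FLT3 enhancer was silenced. By edgeR's quasi-likelihood test, 0 of 93 tested member peaks passed a false discovery rate (FDR) of 0.05, against 2 of 82558 tested peaks overall (0.00242%) and 1 of 10096 start peaks of other coding genes (0.0099%), and the adjusted p was 1.0 for each. DESeq2 and limma-voom also called 0. At an unadjusted p under 0.05, 3 member peaks were lower (3.23%, against 1.07% of all tested peaks and 2.95% of start peaks of other coding genes) and 1 was higher (1.08%, against 0.827% and 0.139%). The 1 higher peak is the start peak of RPL4, which passed the count filter only through the sgFLT3-DE-1 libraries and so had to differ, and nothing is read from it. The 6 member peaks under the count filter were the start peak of RPL19, with 3 and 4 counts in sgFLT3-DE-1 cells and 5 and 8 in sgNT cells, and second peaks of RPL6, RPL17, RPL23, RPLP1 and RPS27L. Standard errors of the start peaks ran from 0.251 to 0.754 on the log2 scale with a median of 0.314. The peak at the guide site did not pass FDR 0.05 either (-0.92, SE 0.264), so 0 calls do not exclude changes of that size.

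As a set, the estimates lay mostly below 0. Of the 93 tested peaks, 80 (86.0%) had a lower estimate in sgFLT3-DE-1 cells, against 48.1% of all tested peaks and 68.6% of 10096 start peaks of other coding genes. Both sgFLT3-DE-1 libraries were below both sgNT libraries at 28 member peaks (30.1%), against 13.8% of all tested peaks and 26.7% of the other coding start peaks, and above both at 4 (4.30%), against 13.7% and 5.22%. The median log2 fold change was -0.21 over the member peaks and -0.25 over the start peaks, against -0.12 over start peaks of other coding genes (-0.09 in the same GC classes) and 0.01 over all tested peaks. The difference from other coding starts of the same GC class was -0.16, and it was -0.030 without sgFLT3-DE-1 replicate 1, so 1 library decides most of it. Coding promoters as a whole moved the same way, and whether the ribosomal protein genes moved apart from them rests on 2 libraries per guide, for which an exact permutation test cannot give a p below 0.333.

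The same could be read from summed counts. Member peaks held 0.129% (95% Wilson interval 0.126 to 0.133%) and 0.140% (0.137 to 0.144%) of all counts in sgFLT3-DE-1 cells, against 0.151% (0.147 to 0.155%) and 0.163% (0.158 to 0.168%) in sgNT cells. These intervals cover counting error only. The mean was 0.135 ± 0.00759% in sgFLT3-DE-1 cells and 0.157 ± 0.00868% in sgNT cells (SD, n = 2 each), and the groups did not overlap. Start peaks of other coding genes held 25.4 and 25.0% of all counts in sgFLT3-DE-1 cells, against 27.5 and 26.6% in sgNT cells. Among counts at coding start peaks only, the ribosomal protein genes took 0.398 and 0.448% in sgFLT3-DE-1 cells and 0.435 and 0.490% in sgNT cells, and here the groups overlapped. In bulk libraries, fewer cells with an open promoter and less accessibility per cell cannot be told apart.

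The large subunit genes had the lower median estimate, by a margin that depends on the processing. At 38 of 43 large subunit start peaks (88.4%) and 21 of 26 small subunit start peaks (80.8%) the estimate was below 0, and the medians were -0.30 and -0.19. The difference of -0.10 compares with a spread between libraries of 0.0738 (SD), and it was -0.04 without sgFLT3-DE-1 replicate 1 and -0.04 without sgNT replicate 2. It was -0.05 by limma-voom, -0.07 with a GC correction and -0.024 among peaks averaging 50 counts or more. Both sgFLT3-DE-1 libraries were below both sgNT libraries at 19 of 43 large subunit start peaks (44.2%) and 5 of 26 small subunit start peaks (19.2%), against 13.8% of all tested peaks and 26.7% of other coding start peaks, so the small subunit share lies below that of other coding starts. In summed counts, large subunit peaks held 0.0789 and 0.0868% of all counts in sgFLT3-DE-1 cells and 0.0924 and 0.102% in sgNT cells. Small subunit peaks held 0.0505 and 0.0534% in sgFLT3-DE-1 cells and 0.0583 and 0.0606% in sgNT cells. The ratio of large to small subunit counts was 1.56 and 1.62 in sgFLT3-DE-1 cells and 1.58 and 1.69 in sgNT cells, and these ranges overlap.

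**Figure D3:**
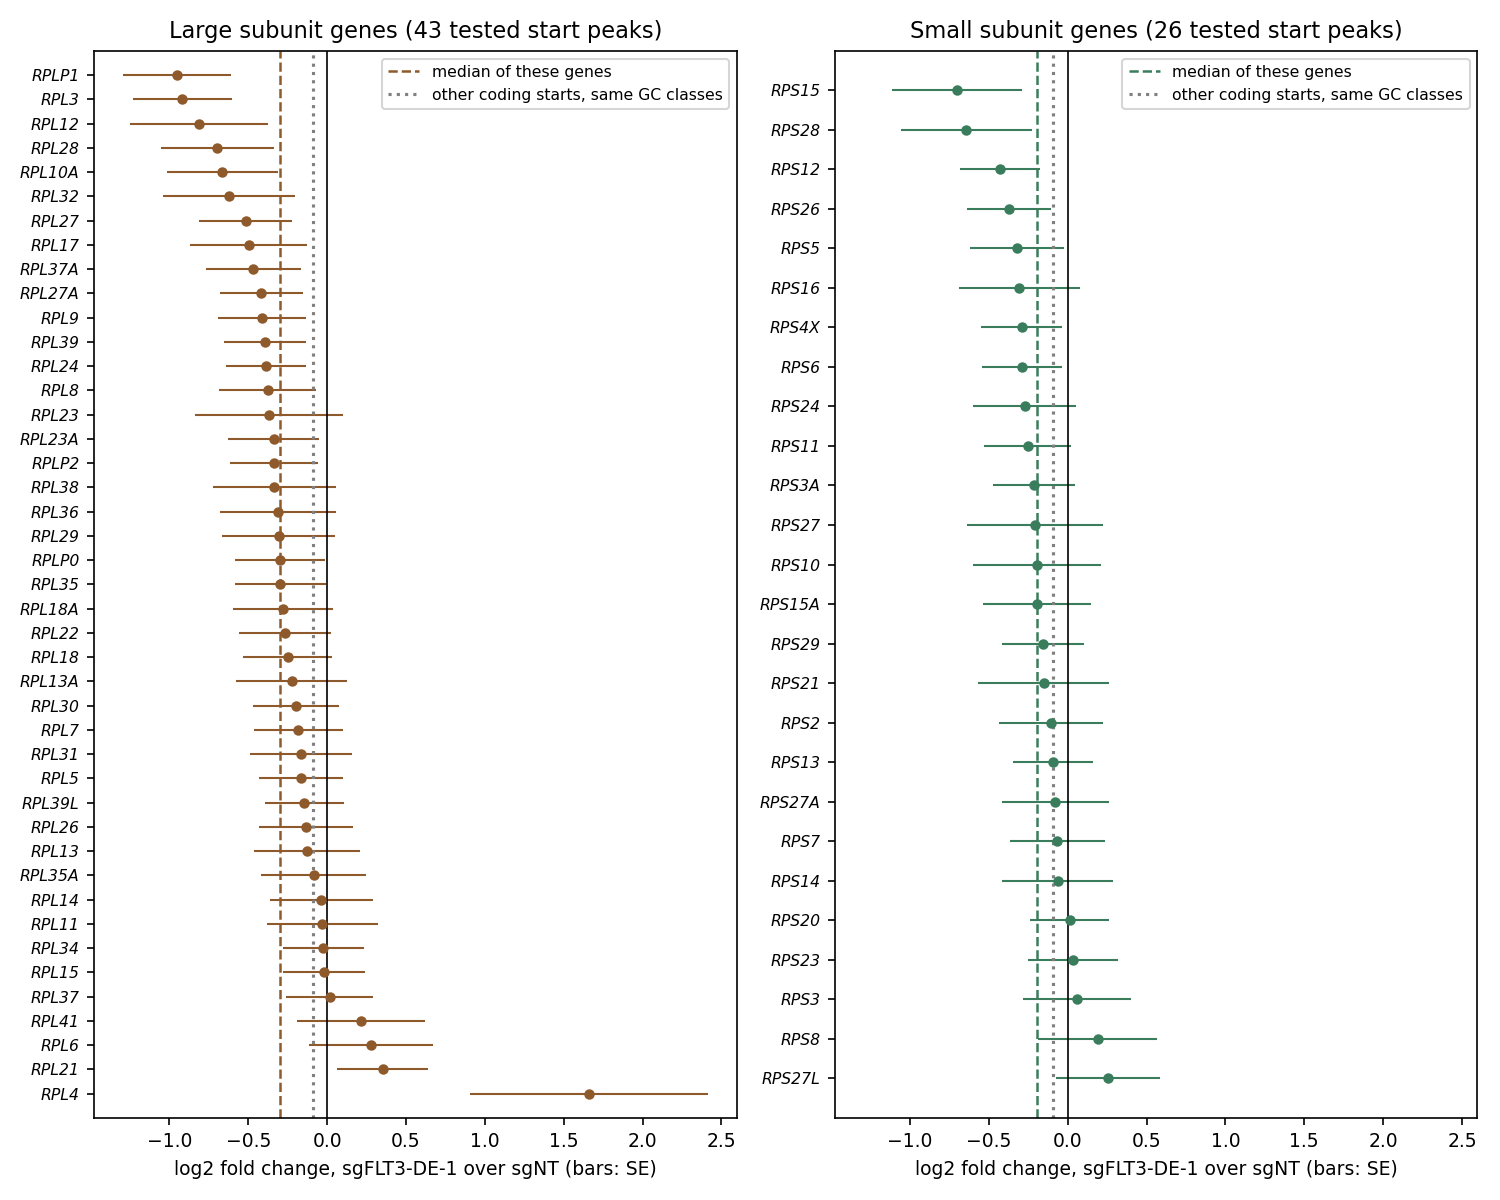
Log2 fold change of sgFLT3-DE-1 over sgNT (horizontal axis) at the tested start peak of each large subunit gene (left, 43) and small subunit gene (right, 26), with standard errors. Dashed lines mark the medians (-0.30 and -0.19), dotted lines the weighted median of other coding starts in the same GC classes (-0.09), and most error bars reach the dotted line.

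RPL3, which lies next to the catalytic centre of the large subunit, had the smallest p of the member peaks. Its start peak (chr22:39715556-39715909) held 28 and 42 counts in sgFLT3-DE-1 cells and 46 and 47 in sgNT cells. That is 8.65 and 9.29 CPM in sgFLT3-DE-1 cells and 15.4 and 18.8 CPM in sgNT cells. Both sgFLT3-DE-1 libraries were below both sgNT libraries, with a log2 fold change of -0.92 (SE 0.314, edgeR unadjusted p = 0.00669, adjusted p = 1.0), which leaving out any 1 library kept between -1.07 and -0.80.

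The stalk, which recruits the elongation factors, is built from RPLP0, RPLP1 and RPLP2, and all 3 start peaks had lower estimates in sgFLT3-DE-1 cells. So had 88.4% of large subunit start peaks and 68.6% of start peaks of other coding genes. RPLP1 had 5.87 and 8.84 CPM in sgFLT3-DE-1 cells and 12.7 and 16.4 CPM in sgNT cells, without overlap (-0.95, SE 0.342, edgeR unadjusted p = 0.00959, adjusted p = 1.0). RPLP2 had 14.8 and 21.0 CPM in sgFLT3-DE-1 cells and 24.1 and 21.6 CPM in sgNT cells, also without overlap but with a smaller estimate (-0.34, SE 0.279). RPLP0 had 19.2 and 24.8 CPM in sgFLT3-DE-1 cells and 19.7 and 35.2 CPM in sgNT cells. Its groups overlapped, and the estimate (-0.30, SE 0.287) rests on sgNT replicate 2, without which it was 0.14. None of the 3 passed the test.

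RPL5 and RPL11 bind the 5S ribosomal RNA and, when free, the p53 regulator MDM2. The RPL5 start peak had 22.9 and 23.0 CPM in sgFLT3-DE-1 cells and 22.4 and 29.2 CPM in sgNT cells (-0.16, SE 0.266). A second peak 169 bp downstream (chr1:93297766-93298034) was lower, with 6.18 and 5.09 CPM in sgFLT3-DE-1 cells and 11.7 and 10.0 CPM in sgNT cells (-0.96, SE 0.369, edgeR unadjusted p = 0.0146, adjusted p = 1.0). The gap of 0.80 between the estimates of both peaks was among the 3 widest within a gene and was not tested. RPL11 had 8.34 and 9.95 CPM in sgFLT3-DE-1 cells and 11.0 and 7.61 CPM in sgNT cells, and its estimate (-0.03, SE 0.353) had no clear direction.

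RPL4, RPL17 and RPL39 line the exit tunnel through which the new protein leaves. The RPL4 start peak held 13 and 14 counts in sgFLT3-DE-1 cells and 4 and 2 counts in sgNT cells (1.66, SE 0.754). It passed the count filter only through the sgFLT3-DE-1 libraries, so nothing is read from this estimate. A second RPL4 peak 251 bp upstream, shared with ZWILCH, held more counts, with 5.87 and 5.53 CPM in sgFLT3-DE-1 cells and 5.68 and 7.61 CPM in sgNT cells (-0.21, SE 0.408). RPL39 had 23.5 and 24.1 CPM in sgFLT3-DE-1 cells and 29.1 and 33.6 CPM in sgNT cells, without overlap (-0.39, SE 0.259). RPL17 had 6.49 and 6.19 CPM in sgFLT3-DE-1 cells and 8.36 and 9.61 CPM in sgNT cells at its start peak (-0.50, SE 0.373), while a second peak of 11 and 20 counts in sgFLT3-DE-1 cells and 8 and 8 in sgNT cells had an estimate of 0.43 (SE 0.535).

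The next smallest p among large subunit start peaks belonged to RPL28 and to RPL10A, which forms the mobile L1 stalk. RPL28 had 5.87 and 8.18 CPM in sgFLT3-DE-1 cells and 9.69 and 13.6 CPM in sgNT cells (-0.70, SE 0.359, edgeR unadjusted p = 0.0618). RPL10A had 6.49 and 9.73 CPM in sgFLT3-DE-1 cells and 10.4 and 16.0 CPM in sgNT cells (-0.66, SE 0.349, edgeR unadjusted p = 0.0677). Neither overlapped between guides and neither passed the test. RPL12, which lies at the base of the stalk and shares its peak with LRSAM1, had a lower estimate with a wider error (-0.81, SE 0.438), from 6.18 and 3.32 CPM in sgFLT3-DE-1 cells and 5.68 and 10.8 CPM in sgNT cells, with overlap. At the other end, RPL21, on chromosome 13 like the guide site, had 20.1 and 23.0 CPM in sgFLT3-DE-1 cells and 13.7 and 20.4 CPM in sgNT cells (0.35, SE 0.287), and RPL6 and RPL41 had estimates of 0.28 (SE 0.391) and 0.21 (SE 0.408). RPL41 encodes the smallest ribosomal protein.

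Among small subunit genes no start peak reached an unadjusted p under 0.05 by edgeR. The lowest estimate was that of RPS15, with 3.71 and 7.74 CPM in sgFLT3-DE-1 cells and 6.68 and 12.8 CPM in sgNT cells, which overlap (-0.70, SE 0.412). RPS28 had 5.56 and 4.42 CPM in sgFLT3-DE-1 cells and 6.02 and 9.61 CPM in sgNT cells, without overlap, in a peak shared with NDUFA7 (-0.64, SE 0.414). RPS12 had 27.2 and 23.9 CPM in sgFLT3-DE-1 cells and 33.8 and 34.8 CPM in sgNT cells, without overlap, in a peak shared with SLC18B1 (-0.43, SE 0.256). These 3 were named after their values were seen, as was RPL12. RPS2 and RPS3 form the entry of the mRNA channel, and their estimates were -0.10 (SE 0.329) and 0.06 (SE 0.342), with overlapping groups. RPS6, the substrate of the S6 kinases, had 28.4 and 27.2 CPM in sgFLT3-DE-1 cells and 35.8 and 32.0 CPM in sgNT cells. Its groups did not overlap, with an estimate of -0.29 (SE 0.254). RPS14, whose loss with part of chromosome arm 5q is tied to the anaemia of the 5q- syndrome, had 7.72 and 10.6 CPM in sgFLT3-DE-1 cells and 8.69 and 10.8 CPM in sgNT cells (-0.06, SE 0.351). RPS27A, made as a fusion with ubiquitin, had 9.58 and 9.95 CPM in sgFLT3-DE-1 cells and 11.7 and 8.81 CPM in sgNT cells (-0.08, SE 0.340). RPS27L had 10.5 and 13.3 CPM in sgFLT3-DE-1 cells and 9.69 and 10.4 CPM in sgNT cells, the one small subunit start peak that was higher in both sgFLT3-DE-1 libraries than in both sgNT libraries (0.25, SE 0.330).

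**Figure D4:**
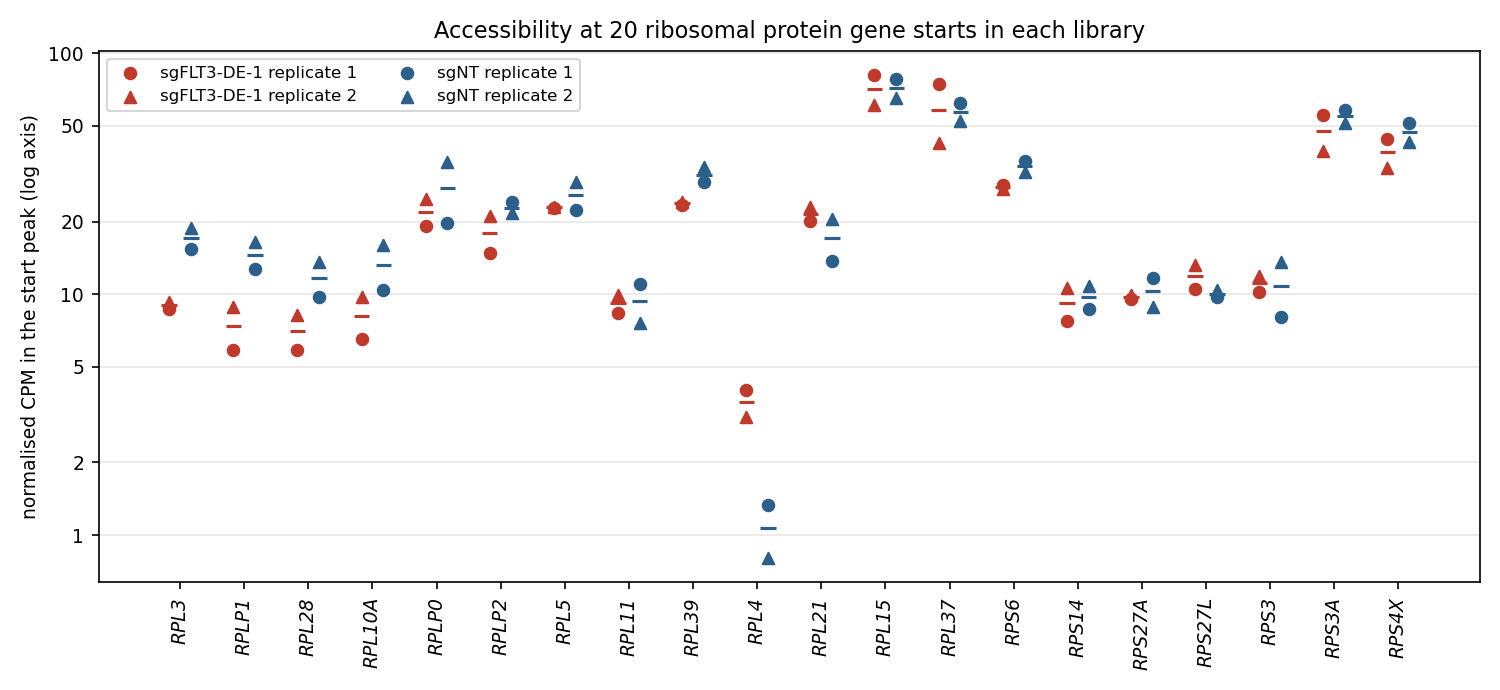
Normalised CPM in the start peak (vertical log axis) of 20 ribosomal protein genes in each library, in sgFLT3-DE-1 cells left (red) of sgNT (blue), circles for replicate 1, triangles for replicate 2 and bars for group means. RPL3, RPLP1, RPLP2, RPL28, RPL10A, RPL39 and RPS6 are lower in both sgFLT3-DE-1 libraries than in both sgNT libraries, as are 26.7% of start peaks of other coding genes. RPL4 rests on 2 to 14 counts per library, and the genes of highest level (RPL15, RPL37, RPS3A, RPS4X) overlap between guides.

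The start peaks were also grouped by sequence, by neighbour and by disease, as a description without a test. The 50 start peaks with a TOP-like start had a median log2 fold change of -0.20, with 43 below 0, and the 19 tested ones without it had -0.37, with 16 below 0. With an ETS core the median was -0.22 (24 tested) and without it -0.27 (45 tested). The 13 start peaks shared with another coding gene had a median of -0.30, and the 56 tested ones that were not shared had -0.22. Across the 69 tested start peaks the estimate was not related to GC content (Spearman -0.001) or to level (Spearman 0.07), given as a description across genes. Of 18 genes mutated in Diamond-Blackfan anaemia, a failure of red cell production, 16 had a tested start peak. All 16 had a lower estimate, with a median of -0.18, which is nearer to 0 than the -0.28 of the other ribosomal protein genes, and at 3 of 16 both sgFLT3-DE-1 libraries were below both sgNT libraries. Among other coding start peaks, 68.6% had a lower estimate and 26.7% had both sgFLT3-DE-1 libraries below both sgNT libraries, so the second count is under that share.

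Other genes of protein synthesis had shares of lower estimates near that of other coding start peaks (68.6%). Of 34 translation factor genes with a tested start peak, 26 had a lower and 8 a higher estimate, with a median of -0.17 and 0 past FDR 0.05 by edgeR (unadjusted p under 0.05 at 2 lower and 1 higher). Of the 2 lower, EEF2 (9 and 7 counts in sgFLT3-DE-1 cells, 17 and 12 in sgNT cells) passed the count filter only through the sgNT libraries. So did EIF4A2 (6 and 12 counts in sgFLT3-DE-1 cells, 11 and 13 in sgNT cells), among the 26. Nothing is read from these estimates. The 1 higher at an edgeR unadjusted p under 0.05 was EEF1A1, with 2272 and 1185 CPM in sgFLT3-DE-1 cells and 686 and 232 CPM in sgNT cells. Its replicates also differed widely within each guide. With 1094 CPM over the 4 libraries, it was the highest of all 139872 peaks. Whether these counts come from the gene's own locus alone was not tested, so no change at EEF1A1 is read from them. Of 37 ribosome assembly genes, 27 had a lower and 10 a higher estimate, with a median of -0.19 and 0 past FDR 0.05 by edgeR (unadjusted p under 0.05 at 3 lower and 0 higher). Of 70 genes of the mitochondrial ribosome, which makes the proteins encoded in mitochondria, 45 had a lower and 25 a higher estimate, with a median of -0.07 and 0 past FDR 0.05 by edgeR (unadjusted p under 0.05 at 4 lower and 0 higher). Over all tested peaks, an unadjusted p under 0.05 was found for 1.07% lower and 0.827% higher, and over other coding start peaks for 2.95% lower and 0.139% higher. The medians of the translation factor and assembly genes lay between that of other coding starts (-0.12) and that of the ribosomal protein start peaks (-0.25). None of these differences between lists was tested.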

How the data were processed

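The authors deposited raw counts per consensus ATAC-seq peak for 4 libraries (2 per guide) and the positions of the same peaks, on hg19 (GRCh37). Trimming and alignment are given as cutadapt 1.18 and Bowtie2 2.2.9 in the labels, but the submitters' processing notes name BWA, and besides it MACS2 2.1.1.20160309, bedtools 2.24.0, SAMtools 1.2 and Trim Galore 0.4.4. How fragments were selected for counting, or shifted for the transposase, is not given in these sources. The consensus peaks come from these same 4 libraries.

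Differences were tested by edgeR 4.0.16 in R 4.3.3, with group as the only term, TMM factors, filterByExpr (minimum count 10, minimum total 15) and Benjamini-Hochberg adjustment over all 82558 tested peaks. Starts came from GENCODE 44 lifted to GRCh37. Depth ran from 2683477 to 4831164 counts per library. Groups came from the titles and treatment labels. The members and lists were chosen with earlier results of these data known. Named peaks were the 5 of smallest p in each direction, the 5 start peaks of highest and of lowest level, the genes in lists of roles, and the 3 genes whose peaks differed most. Alternatives were other scaling, filters, tests (DESeq2 1.42.0, limma 3.58.1), a GC correction (loess, span 0.3), replicate number as a block, leaving out each library, and other windows or symbol rules. The procedure was also run on counts simulated independently for each library. That run left out the shared deviation of libraries with the same replicate number, and no result here rests on it.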

Additional observations from a re-analysis of the deposited data

How the results depend on the processing

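No member peak passed FDR 0.05 in any alternative run by edgeR, DESeq2 or limma-voom. With the replicate number as a block, 0 of 93 member peaks passed as well. The smallest adjusted p by edgeR was then 0.0703 (RPL3), and 17 higher and 57 lower peaks passed over the whole table. With the block and the GC correction together, 12 higher and 8 lower peaks passed. The labels do not say that a number marks a batch, although the libraries numbered 1 deviated together (r = 0.397) and same-numbered libraries correlated better (0.915 and 0.922 in log2 CPM) than libraries of the same guide (0.875 and 0.887). The block changed the FDR call of no member peak. At an edgeR unadjusted p under 0.05 there were 16 of 93 member peaks with the block, against 4 in the main fit. The share over all tested peaks with the block is not given here, so nothing is read from that rise.

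The count of lower estimates was 29 of 38 (76.3%) among peaks averaging 50 counts or more. When 1 library was left out it ran from 65 of 94 (69.1%, without sgNT replicate 2) to 77 of 97 (79.4%, without sgNT replicate 1). Other coding start peaks had 68.6% in the main fit, and their share under these settings is not given here. The median over member peaks ran from -0.34 (without sgNT replicate 1) to -0.14 when 1 library was left out. Large minus small subunit was -0.024 among peaks averaging 50 counts or more, and -0.16 to -0.04 when 1 library was left out. Ribosomal protein minus other coding starts of the same GC class ran from -0.23 to -0.030 (without sgFLT3-DE-1 replicate 1) when 1 library was left out. With symbols of longer suffixes added (106 peaks), the share of counts was 0.149% in sgFLT3-DE-1 cells and 0.172% in sgNT cells. The ratio of levels was 0.796 per kb, 0.787 with no filter on low counts, and 0.703 to 0.746 when 1 library was left out. With 100 in place of 250 bases upstream, the NFY core was present at 22.9% and the HOXA9 core at 1.43% of the genes. The cause of these shifts was not tested.

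Some named start peaks with estimates near 0 changed sign. RPL11 was 0.010 with block and GC correction, and -0.29 to 0.26 when 1 library was left out. RPL15 was 0.0039 among peaks averaging 50 counts or more, 0.089 with the GC correction, 0.080 with block and GC correction, and -0.25 to 0.17 when 1 library was left out. RPL37 was -0.047 with no filter, -0.030 by limma-voom, and -0.44 to 0.36 when 1 library was left out. RPS27A was 0.027 with block and GC correction, and -0.28 to 0.14 when 1 library was left out. RPS3 was -0.0039 with no filter, and -0.30 to 0.44 when 1 library was left out. Leaving out 1 library also turned RPL5 (-0.36 to 0.0095), RPLP0 (-0.68 to 0.14), RPS14 (-0.33 to 0.12), RPS2 (-0.38 to 0.17), RPS27 (-0.60 to 0.23) and RPS3A (-0.49 to 0.012). Depth, 2 libraries per guide and peak calling on the compared libraries limit all of these values.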
